A study of Mus musculus with 12 samples.

Results

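The genes described here encode elastic fibre and microfibril proteins of the extracellular matrix, and were chosen as the rows of both deposited tables that carry the symbols *Eln*, *Fbn1*, *Mfap5*, *Fbln1*, *Fbln2*, *Fbln5*, *Efemp1*, *Efemp2*, *Emilin1* and *Emilin2*. All 10 were found, each in 1 row, among 12528 genes, and all 10 passed the filter on low values in every comparison. RNAseq was performed on cells sorted from hearts of adult *Bmi1*-YFP mice on a C57BL/6 background, which carry CreER at 1 *Bmi1* allele and a *Rosa26*-YFP reporter at 1 allele. All mice of the 3 groups carried both alleles and received 3 daily injections of tamoxifen (TM), at a dose of 9 mg for every 40 g of weight, so that YFP marks cells in which *Bmi1* was active at induction and their progeny. The first group is *Bmi1*-CPC in homeostasis, which are YFP+ cells of uninjured hearts taken 5 days after TM. The second is *Sca-1*-YFP- cells of uninjured hearts at the same time, which were sorted as SCA-1+, YFP- and CD45-. The third is *Bmi1*-CPC after acute myocardial infarction (AMI), which was performed 5 days after TM and followed by sorting of YFP+ cells 5 days later. Each group has 4 libraries, with the cells of 6 mice pooled in each homeostatic library and of 2 to 3 mice in each AMI library. The age of the mice is given as 8 weeks in the methods of the study and as 6 to 8 weeks in its results. The cells after AMI were taken later after TM than the homeostatic cells and came from smaller pools. The AMI mice also underwent open-chest surgery, and no sham operation is described for the homeostatic mice used for RNAseq. These differences and the infarction cannot be told apart. Removal of CD45+ cells is described for the *Sca-1*-YFP- sort only. By their titles the *Bmi1*-CPC samples of both groups were positive for SCA-1 as well as YFP, but the sort in the methods used YFP alone.

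Elastic fibres give arteries, valves and the connective tissue of the heart their recoil. They form when tropoelastin, the product of *Eln*, is deposited on microfibrils built from fibrillin, and is then cross-linked by lysyl oxidases; fibulins and the related EFEMP proteins bring tropoelastin, the enzymes and the microfibrils together, and emilins lie where elastin and microfibrils meet. Microfibrils also hold latent TGF-beta through its binding proteins, and fibroblasts and smooth muscle cells are the main producers of these proteins in heart and vessels.

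Reads were recovered from the deposited values and summed over the 12528 deposited genes only. These sums, called library totals below, were 4063619 to 4993906 in homeostatic *Bmi1*-CPC, 3397621 to 8031666 in *Sca-1*-YFP- cells and 6784686 to 8078721 after AMI. *mt-Rnr2*, a mitochondrial ribosomal RNA, made up 25.0 to 32.8% of these reads in the first group, 10.4 to 23.7% in the second and 20.3 to 33.4% in the third. The deposited normalized value of a gene is close to reads scaled per library, and 3 reads, the limit that a count of 0 allows, correspond to 0.316 to 0.888, for counting error only. The member with the fewest reads in any library, *Emilin2*, had 23. *Bmi1*, the gene whose allele drives the label, had a normalized value of 48.7 ± 7.61 in homeostatic *Bmi1*-CPC, 28.1 ± 4.84 in *Sca-1*-YFP- cells and 45.5 ± 3.86 after AMI (mean ± SD, n = 4 libraries each, as throughout). *Ly6a*, which encodes SCA-1, had 809 ± 19.7, 642 ± 116 and 577 ± 128 in the same order, so that the transcript of the sorting antigen was present in all 3 groups.

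In homeostasis every member was lower in *Bmi1*-CPC, compared with *Sca-1*-YFP- cells, and after AMI 5 members, *Fbn1*, *Mfap5*, *Efemp2*, *Fbln5* and *Emilin2*, were higher than in homeostatic *Bmi1*-CPC, while *Eln*, *Fbln1*, *Fbln2*, *Efemp1* and *Emilin1* did not pass the test. The groups were compared with limma on log2(value + 1), two-sided, and a gene was called when its p, adjusted over all genes tested by the method of Benjamini and Hochberg, was under 0.05. Fold changes are differences on this log2 scale, where low values make changes look smaller. The replicates are pools of mice, and p-values measure only the spread between these pools. As bulk samples were sequenced, fewer cells of a type and less RNA per cell cannot be told apart.

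**Figure D1:**
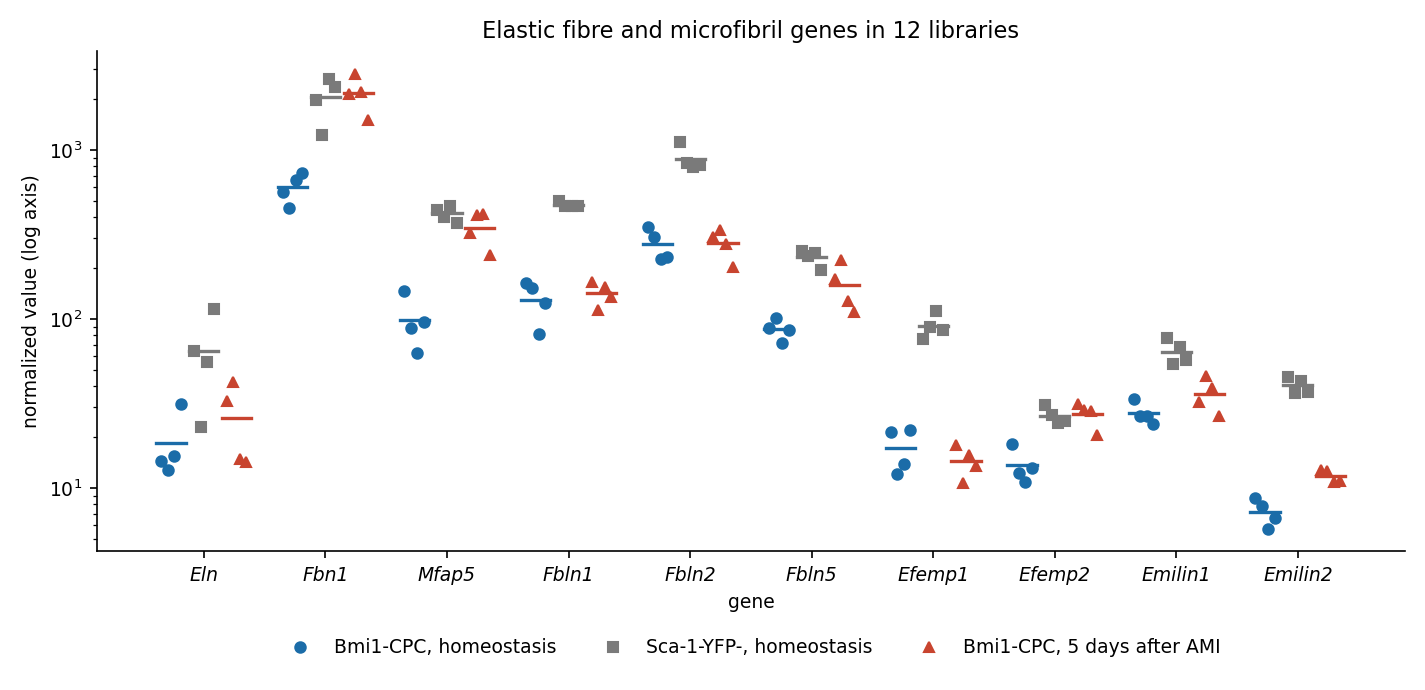
Normalized value of each of the 10 members (horizontal axis) in each of 12 libraries on a log axis (vertical), with circles for homeostatic *Bmi1*-CPC, squares for *Sca-1*-YFP- cells and triangles for *Bmi1*-CPC after AMI. Points of a group are in the order of replicates 1 to 4 and the bars are group means; the circles lie under all squares for every member except *Eln*, and the triangles of *Fbn1* lie at the level of the squares and 2 of 4 of *Mfap5* among them, while those of *Fbln1*, *Fbln2* and *Efemp1* overlap the circles.

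Promoter windows of RefSeq (GRCm38.p6, 250 bases before to 50 after a transcript start) were matched by symbol for 8 of the 10 members, in 13 windows. The 4 printed here set 2 members that were higher after AMI (*Fbln5* and *Efemp2*) beside 2 that did not pass that test (*Fbln1* and *Efemp1*), and capitals mark matches, on either strand, to 5 motifs: AP-1 (TGANTCA), TEAD (GGAATG), SMAD (CAGACA), the TATA box (TATAAA) and the GC box (GGGCGG).
Fbln5, chr12:101819070-101819369, minus strand: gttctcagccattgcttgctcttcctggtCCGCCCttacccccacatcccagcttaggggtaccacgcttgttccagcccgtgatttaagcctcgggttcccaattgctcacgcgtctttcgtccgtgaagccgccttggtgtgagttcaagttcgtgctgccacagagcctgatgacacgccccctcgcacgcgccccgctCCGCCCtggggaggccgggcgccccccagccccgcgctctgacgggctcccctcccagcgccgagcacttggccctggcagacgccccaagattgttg
Efemp2, chr19:5473696-5473995, plus strand: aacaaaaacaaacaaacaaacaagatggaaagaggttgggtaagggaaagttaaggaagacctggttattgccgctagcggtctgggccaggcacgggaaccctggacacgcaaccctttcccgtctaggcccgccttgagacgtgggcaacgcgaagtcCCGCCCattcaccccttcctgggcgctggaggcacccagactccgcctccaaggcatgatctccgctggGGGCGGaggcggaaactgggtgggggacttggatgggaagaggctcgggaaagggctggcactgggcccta
Fbln1, chr15:85205699-85205998, plus strand: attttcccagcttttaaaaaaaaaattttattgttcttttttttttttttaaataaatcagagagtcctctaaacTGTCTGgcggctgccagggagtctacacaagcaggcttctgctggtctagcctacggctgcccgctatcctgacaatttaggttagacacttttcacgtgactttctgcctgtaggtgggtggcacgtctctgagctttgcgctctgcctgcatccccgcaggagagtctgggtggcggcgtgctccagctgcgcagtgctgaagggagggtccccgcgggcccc
Efemp1, chr11:28852955-28853254, plus strand: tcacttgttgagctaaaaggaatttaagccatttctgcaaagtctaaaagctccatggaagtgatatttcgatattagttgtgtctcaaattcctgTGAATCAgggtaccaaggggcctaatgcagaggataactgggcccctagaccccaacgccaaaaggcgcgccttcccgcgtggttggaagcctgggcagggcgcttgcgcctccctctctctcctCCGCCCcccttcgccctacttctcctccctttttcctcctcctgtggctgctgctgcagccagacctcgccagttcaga
The AP-1 letters were found in 7.8% of 32851 promoter windows of that length and in 1 of the 13 member windows, at position −154 of *Efemp1*, counted from the transcript start. A GC box was found in 35.7% of all windows and in 9 member windows, which belong to 7 members. These include the printed windows of *Fbln5* and *Efemp2* with 2 matches each and of *Efemp1* with 1. The window of *Fbln1* that is not printed (chr15:85205758-85206057) also holds 2. Windows of the same member can overlap and share matches, as some of *Efemp2* and those of *Fbln1* do, so the 13 windows are not independent. The SMAD letters occur in 21.0% of all windows and in 4 member windows, of *Fbln1*, *Fbln5* and *Emilin1*, the TEAD letters in 14.7% and in 1 window of *Emilin2*, and TATAAA in 13.6% and in 0 of the 13. These matches describe letters in these windows only. *Fbln1* (in the window printed) and *Fbln5* (in its other window) share the SMAD letters and were on different sides of the threshold after AMI. In GENCODE M21 the *Fbln5* gene starts at base 101819055 on the minus strand, so that its printed window lies wholly before that start.

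*Eln* (ENSMUSG00000029675, chromosome 5) encodes tropoelastin, the soluble precursor of elastin. Its normalized values in replicates 1 to 4 were 14.4, 12.7, 15.5 and 31.4 in homeostatic *Bmi1*-CPC and 64.4, 22.8, 55.4 and 115 in *Sca-1*-YFP- cells. After AMI they were 32.5, 42.4, 14.8 and 14.3. The highest homeostatic *Bmi1*-CPC library lay above the lowest *Sca-1*-YFP- library, so that these groups overlapped, and the AMI libraries overlapped both. In homeostasis *Eln* was lower in *Bmi1*-CPC (log2 fold change −1.63, 95% interval −2.49 to −0.76, adjusted p = 0.0064 in limma). After AMI the difference from homeostatic *Bmi1*-CPC was 0.41 (−0.35 to 1.18, adjusted p = 0.37), an interval that holds both no change and a rise of more than 1 log2 unit. *Eln* was the most variable member within each group, with a coefficient of variation of 46.9%, 59.2% and 53.2%, where the median over the 10 members was 22.7%, 13.6% and 22.3%. In both homeostatic groups its lowest library was replicate 2 and its highest replicate 4. The same replicate 4 pools were the ones nearly without *Xist*, the RNA of the inactive X chromosome, at 1.80 (*Bmi1*-CPC) and 3.45 (*Sca-1*-YFP- cells) against 717 to 2339 in the other homeostatic pools, while all 4 AMI pools had 1024 to 1946. Without homeostatic *Bmi1*-CPC replicate 4 the difference of *Eln* after AMI was 0.69 (adjusted p = 0.13 in limma), against 0.41 with all libraries and 0.13 to 0.69 over the alternatives (adjusted p 0.13 to 0.78), and the part of the pools' make-up in the level of *Eln* was not tested.

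*Fbn1* (ENSMUSG00000027204, chromosome 2) encodes fibrillin-1, the main structural protein of adult microfibrils. It had 563, 452, 660 and 733 in homeostatic *Bmi1*-CPC and 1979, 1224, 2641 and 2349 in *Sca-1*-YFP- cells. After AMI the values were 2159, 2835, 2193 and 1505. All AMI libraries lay above all homeostatic *Bmi1*-CPC libraries and within or just above the range of the *Sca-1*-YFP- libraries. The fold change was −1.73 in homeostasis (−2.23 to −1.24, adjusted p = 8.8e-05 in limma) and 1.84 after AMI (1.41 to 2.26, adjusted p = 2.9e-05). The level after AMI was 3.61 times the homeostatic mean. *Gm9913* overlaps *Fbn1* on the other strand over 2442 exonic bases, and as the libraries keep no strand the reads of both cannot be told apart; *Gm9913* was given at most 3.83 in any library.

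*Mfap5* (ENSMUSG00000030116, chromosome 6) encodes a small glycoprotein that binds fibrillin in microfibrils. It had 146, 88.2, 63.2 and 96.0 in homeostatic *Bmi1*-CPC and 442, 403, 467 and 372 in *Sca-1*-YFP- cells. After AMI the values were 322, 410, 418 and 239. The AMI libraries were again all above the homeostatic *Bmi1*-CPC libraries, and 2 of them exceeded the lowest 2 *Sca-1*-YFP- libraries. *Mfap5* was lower by −2.14 in homeostasis (−2.58 to −1.71, adjusted p = 8.3e-06 in limma) and higher by 1.84 after AMI (1.33 to 2.34, adjusted p = 8.8e-05), a ratio of means of 3.53.

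The fibulins and EFEMP proteins link microfibrils to other matrix proteins. *Fbln1* (ENSMUSG00000006369, chromosome 15), which encodes a fibulin of elastic fibres and basement membranes, had 163, 152, 81.5 and 123 in homeostatic *Bmi1*-CPC and 500, 463, 463 and 468 in *Sca-1*-YFP- cells. After AMI it had 165, 113, 155 and 135, within the spread of homeostatic *Bmi1*-CPC except for 1 library just above it. Its coefficient of variation of 3.75% in *Sca-1*-YFP- cells was the lowest of any member in any group. *Fbln1* was lower in homeostasis by −1.90 (−2.30 to −1.51, adjusted p = 9.7e-06 in limma) and differed after AMI by 0.16 (−0.27 to 0.58, adjusted p = 0.54).

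*Fbln2* (ENSMUSG00000064080, chromosome 6), which encodes a fibulin abundant in the developing heart and its valves, had 352, 304, 225 and 232 in homeostatic *Bmi1*-CPC and 1121, 835, 788 and 813 in *Sca-1*-YFP- cells. The AMI libraries had 307, 337, 278 and 203. The AMI and homeostatic *Bmi1*-CPC libraries overlapped, and all of both lay under every *Sca-1*-YFP- library. The fold change was −1.68 in homeostasis (−2.05 to −1.32, adjusted p = 1.2e-05 in limma) and 0.02 after AMI (−0.36 to 0.40, adjusted p = 0.95).

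*Fbln5* (ENSMUSG00000021186, chromosome 12) encodes fibulin-5, which binds tropoelastin and integrins and is needed for elastic fibre assembly in mice. It had 88.9, 101, 72.2 and 85.7 in homeostatic *Bmi1*-CPC and 251, 236, 246 and 195 in *Sca-1*-YFP- cells. In the AMI libraries it had 173, 223, 128 and 110. These values lay between the homeostatic groups, above all *Bmi1*-CPC libraries, and 1 of them reached into the *Sca-1*-YFP- range. *Fbln5* was lower in homeostasis by −1.41 (−1.68 to −1.14, adjusted p = 6.3e-06 in limma) and higher after AMI by 0.82 (0.40 to 1.23, adjusted p = 0.0046).

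*Efemp1* (ENSMUSG00000020467, chromosome 11), which encodes fibulin-3, had 21.5, 12.05, 13.8 and 22.0 in homeostatic *Bmi1*-CPC and 76.5, 89.5, 111 and 86.2 in *Sca-1*-YFP- cells. After AMI it had 17.9, 10.7, 15.6 and 13.6, in the range of homeostatic *Bmi1*-CPC apart from 1 lower library. Its difference in homeostasis was −2.36 (−2.78 to −1.94, adjusted p = 4.4e-06 in limma), with a mean 5.24 times higher in *Sca-1*-YFP- cells. After AMI the difference was −0.22 (−0.69 to 0.24, adjusted p = 0.42).

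*Efemp2* (ENSMUSG00000024909, chromosome 19) encodes fibulin-4, which brings lysyl oxidase to tropoelastin. It had 18.2, 12.3, 10.8 and 13.1 in homeostatic *Bmi1*-CPC and 30.8, 26.9, 24.3 and 24.7 in *Sca-1*-YFP- cells. After AMI it had 31.3, 28.9, 28.5 and 20.5, above all homeostatic *Bmi1*-CPC libraries and around those of *Sca-1*-YFP- cells. The fold change was −0.94 in homeostasis (−1.31 to −0.57, adjusted p = 8.3e-04 in limma), the smallest of the members, and 0.96 after AMI (0.58 to 1.35, adjusted p = 0.0010). *Efemp2* and *Mus81* overlap on opposite strands over 173 exonic bases, and *Mus81* had means of 3.75, 6.08 and 2.94 in homeostatic *Bmi1*-CPC, *Sca-1*-YFP- cells and AMI *Bmi1*-CPC.

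*Emilin1* (ENSMUSG00000029163, chromosome 5) encodes a glycoprotein between elastin and microfibrils that binds TGF-beta precursor. It had 33.6, 26.8, 26.4 and 23.9 in homeostatic *Bmi1*-CPC and 77.2, 54.3, 67.7 and 57.0 in *Sca-1*-YFP- cells. After AMI it had 32.2, 46.0, 39.2 and 26.5, with 2 libraries above all homeostatic *Bmi1*-CPC libraries and 2 within their range. *Emilin1* was lower in homeostasis by −1.18 (−1.497 to −0.86, adjusted p = 5.8e-05 in limma). Its difference after AMI was 0.35 (−0.02 to 0.71, adjusted p = 0.11), and without AMI replicate 4 it was 0.48 and passed the test (adjusted p = 0.029). Transcripts of 11 other genes match *Emilin1* over stretches of 77 to 150 bases at 95.1 to 96.4% identity, and reads from those stretches could have been split between them.

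*Emilin2* (ENSMUSG00000024053, chromosome 17), which encodes a relative of emilin-1, had 8.73, 7.78, 5.73 and 6.61 in homeostatic *Bmi1*-CPC and 45.5, 36.7, 42.6 and 36.8 in *Sca-1*-YFP- cells. After AMI it had 12.7, 12.5, 10.8 and 11.0, above all homeostatic *Bmi1*-CPC libraries and far under those of *Sca-1*-YFP- cells. The fold change was −2.34 in homeostasis (−2.69 to −1.997, adjusted p = 1.8e-06 in limma), with a mean 5.60 times higher in *Sca-1*-YFP- cells, and 0.65 after AMI (0.30 to 1.00, adjusted p = 0.0067).

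**Figure D2:**
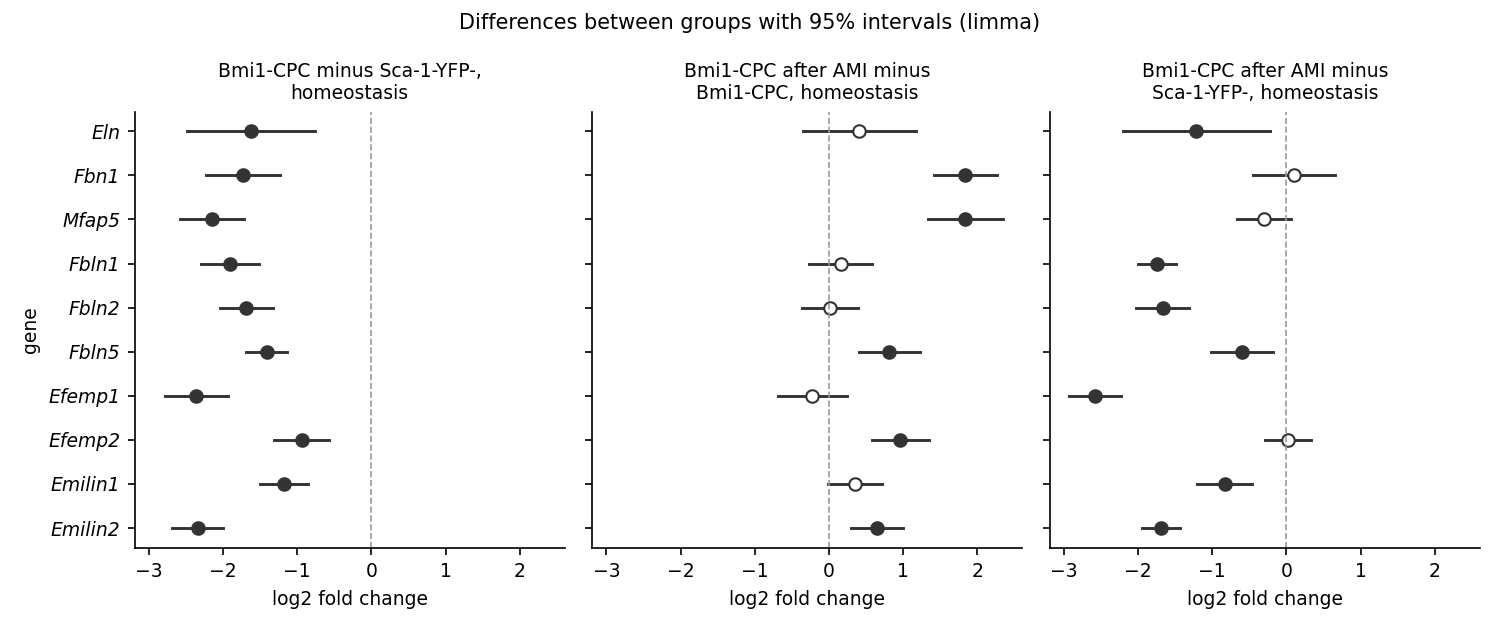
Log2 fold change (horizontal axis, limma on log2(value + 1)) of each member with its 95% interval, for 3 comparisons of 4 against 4 libraries; filled circles passed the threshold and open circles did not. All 10 circles of the left panel are filled and below 0, from −0.94 for *Efemp2* to −2.36 for *Efemp1*, whereas the middle panel runs from −0.22 for *Efemp1* to 1.84 for *Fbn1* and *Mfap5*.

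In homeostasis 10 of 10 members were called lower in *Bmi1*-CPC and 0 higher, where 17.6% of 12450 tested genes were called lower and 16.8% higher. The median fold change of the members was −1.71 and that of all genes 0.00. For 9 members, all except *Eln*, every *Bmi1*-CPC library was under every *Sca-1*-YFP- library, as for 17.1% of all genes. Same-numbered pools of the homeostatic groups appear paired from the data, and the differences within the 4 pairs ran from −0.73 (*Efemp2*, pair 1) to −2.92 (*Efemp1*, pair 3). For the 9 members without overlap any pairing gives lower values in *Bmi1*-CPC. Only *Eln* could have differed in direction, and it was lower in all 4 pairs. The pair differences ranged from −1.32 to −0.99 for *Emilin1* and from −2.09 to −0.80 for *Eln*, the narrowest and the widest range among the members. In edgeR with reads scaled to library totals the median of all genes was −0.25 and 28.2% of the calls were higher, against 48.1% in edgeR with TMM and 48.8% in limma, and the members, at a median of −2.06, were all still called lower.

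After AMI 5 of 10 members were called higher than in homeostatic *Bmi1*-CPC and 0 lower, where 21.4% of 12486 tested genes were called higher and 22.0% lower. The same 5 had no overlap between the groups, as 20.0% of all genes did in that direction. The median fold change of the members was 0.53 and that of all genes −0.02. In edgeR 60.8% of the calls over all genes were higher with library totals and 50.5% with TMM, against 49.3% in limma.

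AMI *Bmi1*-CPC were also set beside homeostatic *Sca-1*-YFP- cells, which differ from them in both sort and injury and which share libraries with the comparisons above. Here 7 members were called lower and 0 higher, where 26.3% of 12521 tested genes were called lower and 25.5% higher, and 5 members, *Fbln1*, *Fbln2*, *Efemp1*, *Emilin1* and *Emilin2*, had no overlap in that direction, against 24.5% of all genes. The median was −1.02 for the members and −0.02 for all genes. *Efemp1* was furthest apart at −2.58, followed by *Fbln1* at −1.75, *Emilin2* at −1.69 and *Fbln2* at −1.67, all with an adjusted p of at most 1.2e-05 in limma. The difference of *Emilin1* was −0.83 (adjusted p = 0.0017). *Eln* (−1.22, adjusted p = 0.041) lost its call without replicate 3 or 4 of AMI, and without *Sca-1*-YFP- replicate 1, 3 or 4 (adjusted p = 0.079 to 0.12). *Fbln5* (−0.60, adjusted p = 0.021) lost it without replicate 3 or 4 of AMI and without *Sca-1*-YFP- replicate 3 (adjusted p = 0.054 to 0.066). *Fbn1* (0.11, −0.45 to 0.66), *Efemp2* (0.02, −0.29 to 0.33) and *Mfap5* (−0.31, −0.67 to 0.06) did not pass the test, and their intervals leave room for differences of up to 0.66, 0.33 and 0.67 log2 units. Of the calls over all genes, 35.2% were higher in edgeR with library totals, 50.8% with TMM and 49.2% in limma.

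The proportions of members within a library do not depend on how libraries are scaled, and 5 ratios, chosen after the values were seen, are given without a test. *Fbn1* over *Fbln1* was 3.45, 2.98, 8.09 and 5.94 in homeostatic *Bmi1*-CPC and 3.96, 2.64, 5.70 and 5.02 in *Sca-1*-YFP- cells. After AMI it was 13.1, 25.1, 14.2 and 11.2, above every homeostatic library of either population. *Mfap5* over *Fbln2* was 0.281 to 0.415 in homeostatic *Bmi1*-CPC, 0.394 to 0.592 in *Sca-1*-YFP- cells and 1.05 to 1.502 after AMI. *Efemp2* over *Efemp1* was 0.596 to 1.02, 0.219 to 0.403 and 1.51 to 2.70 in the same order, and its homeostatic groups were themselves apart. *Fbn1* over *Mfap5*, the pair of members with the largest rises, was 3.86 to 10.4, 3.04 to 6.32 and 5.25 to 6.92, and overlapped between all groups. *Fbln5* over *Eln* was 2.73 to 7.92, 1.70 to 10.3 and 5.26 to 8.61, and also overlapped between all groups.

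**Figure D3:**
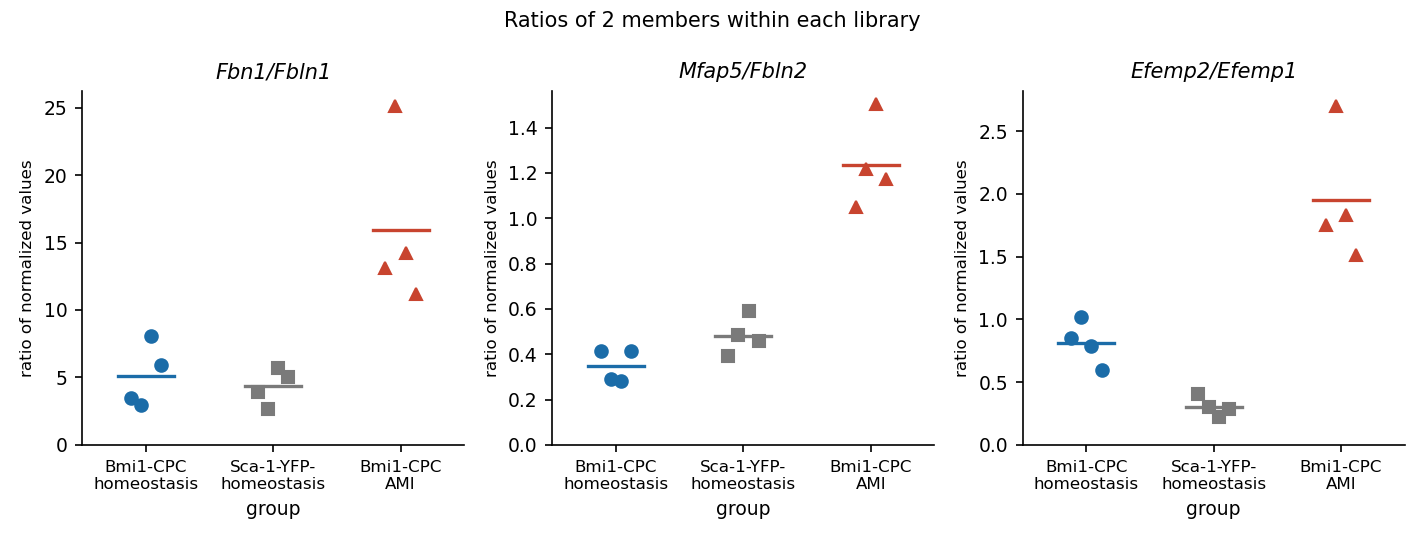
For 3 of the 5 pairs, ratio of the normalized values of 2 members (vertical axis) in each library, by group (horizontal axis), with bars for the mean of 4 libraries. The AMI libraries lie above all homeostatic libraries in each panel, from 11.2 for *Fbn1* over *Fbln1*, 1.05 for *Mfap5* over *Fbln2* and 1.51 for *Efemp2* over *Efemp1*.

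To compare levels between genes, the normalized value was divided by the length of the longest coding transcript in kb (GENCODE M21). Per kb, *Mfap5* was first in all 3 groups, at 65.3 ± 23.0, 279 ± 27.8 and 231 ± 55.8 in homeostatic *Bmi1*-CPC, *Sca-1*-YFP- cells and AMI *Bmi1*-CPC. In homeostatic *Bmi1*-CPC the next were *Fbln2* (58.1 ± 12.7 per kb), *Fbn1* (50.3 ± 10.2) and *Fbln1* (35.5 ± 9.95), and the first 3 did not differ beyond their spread. After AMI *Fbn1* (182 ± 45.4 per kb) was within the spread of *Mfap5*, while *Fbln2* (58.7 ± 11.9) and *Fbln1* (38.7 ± 6.29) followed at a distance larger than the spread. *Eln* was among the lowest in *Bmi1*-CPC, at 4.79 ± 2.25 per kb in homeostasis and 6.74 ± 3.58 after AMI, the ninth in both orders, with *Emilin2* last at 1.83 ± 0.334 and 2.99 ± 0.255. In *Sca-1*-YFP- cells *Eln* was seventh at 16.7 ± 9.89 per kb, not apart from *Emilin1* (16.6 ± 2.73), *Emilin2* (10.3 ± 1.11) and *Efemp2* (10.1 ± 1.13) beyond their spread.

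The genes whose profile over the 12 libraries was most like that of a member were found by the root mean square difference of log2(value + 1) after each profile was centred on its own mean, among 8183 genes with a mean of at least 10. The proteoglycan gene *Dcn* was nearest to *Fbln1* (0.13), followed by *Serping1* (0.16) and the aminopeptidase gene *Anpep* (0.16). Another proteoglycan gene, *Ogn*, was nearest to *Mfap5* (0.15), followed by *Mfap4* (0.17) and the collagen gene *Col5a1* (0.19). *Adamts12* (0.20), *Pi15* (0.21) and *Ugdh* (0.24) were nearest to *Fbn1*. For *Fbln2* the nearest were *Nfix*, *Lamc1* and *Ccdc80* (0.15 to 0.18), for *Fbln5* *Gpc6*, *Zfpm2* and *Tgfb2* (0.18 to 0.19), and for *Emilin1* *Atrnl1*, *Etv1* and *Zfp521* (0.14 to 0.17). *Emilin2* was nearest to *Timp2*, *Sema3c* and *Sdk1* (0.18 to 0.20), *Efemp1* to *Mme*, *Islr* and *Pi16* (0.27 to 0.29), and *Efemp2* to *Wipi1*, *Ssbp2* and *Lamp2* (0.12 to 0.15). *Eln* had no gene as near, with *Arhgap24* at 0.47, *Adamts15* at 0.50 and 2610203C20Rik at 0.50. Among the members themselves the nearest pairs were *Fbln1* with *Fbln2* (0.27) and *Fbln5* with *Emilin1* (0.29), and the nearest to *Fbn1* was *Mfap5* (0.45). All profiles share the 12 libraries and their scaling, so that these distances are descriptions.

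Cross-linking genes were lower in homeostatic *Bmi1*-CPC and higher after AMI for the greater part. Of 7 tested, 5 were called lower and 1 higher in homeostasis (median −1.49), and 5 higher and 1 lower after AMI (median 1.55). As a scale for this and the following lists, 17.6% of all tested genes were called lower and 16.8% higher in homeostasis. The shares after AMI were 21.4% higher and 22.0% lower, and for AMI *Bmi1*-CPC against *Sca-1*-YFP- cells 25.5% higher and 26.3% lower. *Lox*, which encodes lysyl oxidase, had 17.8 ± 4.74 in homeostatic *Bmi1*-CPC, 45.8 ± 13.5 in *Sca-1*-YFP- cells and 735 ± 295 after AMI, a fold change of −1.30 in homeostasis (adjusted p = 0.0012 in limma) and 5.24 after AMI (adjusted p = 2.2e-07). *Loxl1*, whose product acts on elastin in mice, had 33.5 ± 6.32, 160 ± 33.0 and 102 ± 24.6, and *Loxl2* 105 ± 21.8, 377 ± 82.2 and 335 ± 96.8. *Loxl3* had a fold change of −1.59 in homeostasis and 1.68 after AMI. The gene called the other way in both comparisons was *Tgm2*, the transglutaminase gene, at 0.86 and −0.72. Against *Sca-1*-YFP- cells, AMI *Bmi1*-CPC had 1 of the 7 higher (*Lox*, 3.94) and 2 lower (*Loxl1* and *Loxl4*).

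The other genes of microfibrils and their partners moved in both directions. Of 12 tested, 6 were called lower and 2 higher in homeostasis (median −0.82), and 5 higher and 3 lower after AMI (median 0.51). *Fbn2*, which encodes a fibrillin best known from development, had 4.51 ± 3.26 in homeostatic *Bmi1*-CPC, 5.56 ± 3.24 in *Sca-1*-YFP- cells and 39.0 ± 14.6 after AMI (fold change after AMI 2.95, adjusted p = 6.0e-05 in limma). *Ltbp2*, which encodes a fibrillin-binding protein of the latent TGF-beta binding protein family, had 13.6 ± 5.72 in homeostatic *Bmi1*-CPC and 202 ± 90.9 after AMI (3.76, adjusted p = 7.3e-06). In contrast *Ltbp4*, another member of that family with a known part in elastic fibre assembly in mice, had 795 ± 87.8 in homeostatic *Bmi1*-CPC and 294 ± 19.3 after AMI (−1.43, adjusted p = 2.5e-06), and was also lower in *Bmi1*-CPC in homeostasis (−0.95). *Mfap4*, whose product binds elastin and fibrillin, followed *Mfap5* at −2.02 and 1.74. *Ltbp1* had a fold change of −1.39 in homeostasis and 0.00 after AMI (adjusted p = 0.98). The endothelial genes *Mmrn1* and *Mmrn2* were the 2 called higher in homeostasis, and *Mmrn1* was at or under the limit of 3 reads in *Sca-1*-YFP- cells. Compared with *Sca-1*-YFP- cells, AMI *Bmi1*-CPC had 5 of the 12 higher and 3 lower.

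ADAMTS proteases and ADAMTS-like proteins attach to fibrillin microfibrils, and 6 of 9 tested were called lower and 1 higher in homeostasis (median −1.03). *Adamtsl2* (−2.01), *Adamtsl3* (−1.98), *Adamtsl4* (−1.91) and *Adamtsl5* (−1.58) all had an adjusted p of at most 2.6e-04 in limma. After AMI only 3 passed the test, *Adamts6* (1.18) and *Adamtsl1* (0.76) higher and *Papln* (−1.36) lower, with a list median of 0.07. Over all genes 21.4% were called higher and 22.0% lower there, so this list did not stand out after AMI. Set against *Sca-1*-YFP- cells, AMI *Bmi1*-CPC had 6 of these 9 lower and 2 higher, with *Adamtsl4* at −2.32.

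Proteases that cleave elastin were called lower for 5 of 7 and higher for 1 in homeostasis (median −0.67), and higher for 6 and lower for 0 after AMI (median 1.38). The matrix metalloprotease genes *Mmp2* and *Mmp14* were lower in homeostasis (−1.90 and −1.41) and higher after AMI (0.76 and 2.19). *Ctsk*, which encodes cathepsin K, had 5.60 ± 1.13 in homeostatic *Bmi1*-CPC, 18.6 ± 2.37 in *Sca-1*-YFP- cells and 21.9 ± 4.21 after AMI. *Ctss*, a cathepsin gene of macrophages, had 11.8 ± 2.26 in homeostatic *Bmi1*-CPC and 139 ± 59.7 after AMI and was at or under the limit of 3 reads in *Sca-1*-YFP- cells. Removal of CD45+ cells is described for that sort only. The integrin chains and elastin receptor genes were called lower for 7 of 12 and higher for 2 in homeostasis (median −0.79), and higher for 7 and lower for 1 after AMI (median 0.60). *Itgav*, the alpha chain of several integrins that bind fibrillin and latent TGF-beta, had 64.9 ± 8.65, 181 ± 34.8 and 207 ± 40.3 in homeostatic *Bmi1*-CPC, *Sca-1*-YFP- cells and AMI *Bmi1*-CPC. Its partner *Itgb8* had 10.6 ± 1.34, 45.0 ± 6.10 and 32.3 ± 8.36. The 2 called higher in homeostasis were *Itga4* (1.22), which was also higher after AMI (1.91), and *Neu1* (0.58), the 1 called lower after AMI (−0.44). A mixed list of 6 genes, with folding, transport and proline synthesis among their roles, had 4 lower in homeostasis (median −1.38). After AMI 5 were higher (median 0.99). Among these were *Pycr1*, which acts in proline synthesis (−1.40 and 1.90), and *Fkbp10*, which encodes a prolyl isomerase (−1.35 and 0.90). *Pycr1* was low, with a mean of 1.34 in homeostatic *Bmi1*-CPC. *Atp6v0a2* was called in neither comparison (−0.17 and −0.09). For the AMI cells against *Sca-1*-YFP- cells, the protease list had 4 higher and 2 lower, the integrin list 2 and 4, and the mixed list of 6 genes 1 and 2.

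**Figure D4:**
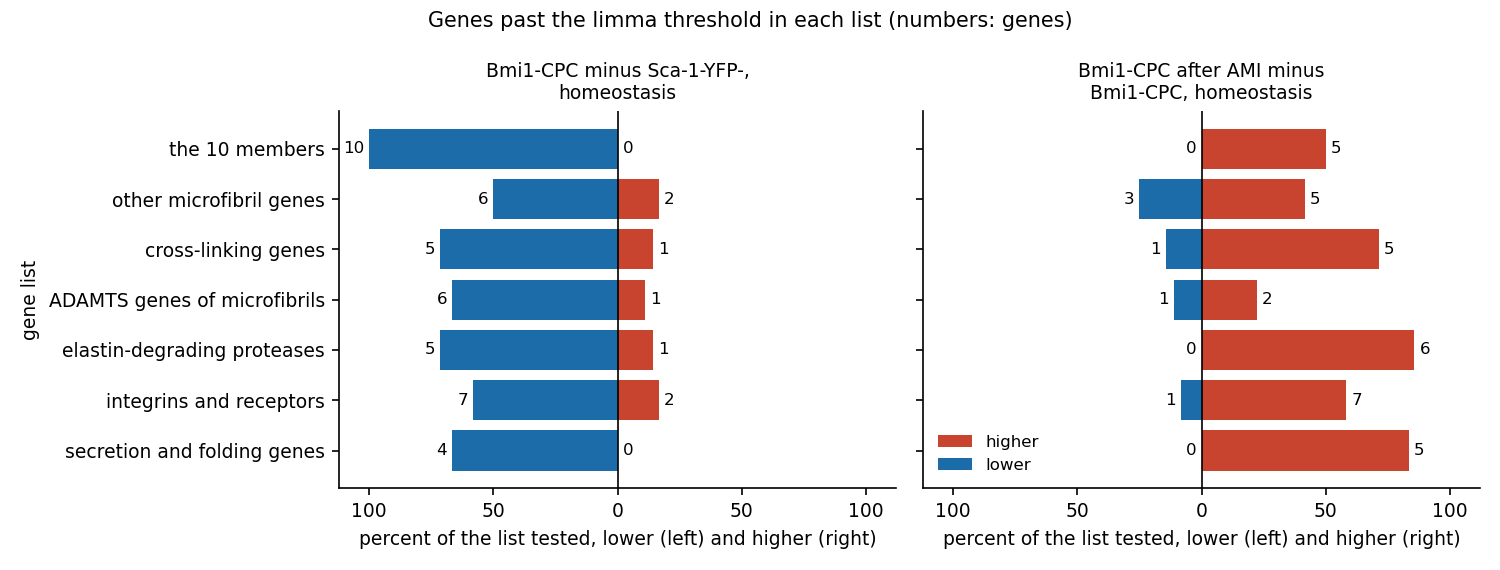
Percent of the tested genes of each list (vertical axis) that were called lower (left of 0) or higher (right of 0) in limma, with the number of genes beside each bar, for homeostatic *Bmi1*-CPC against *Sca-1*-YFP- cells (left panel) and *Bmi1*-CPC after AMI against homeostatic *Bmi1*-CPC (right panel). In the left panel the lower bars are longer than the higher bars for all 7 lists, and in the right panel the higher bars are longer for all 7. Over all genes 17.6% were called lower and 16.8% higher (left), and 22.0% lower and 21.4% higher (right). The ADAMTS list in the right panel, with 2 of 9 higher and 1 lower, did not stand out from these shares. The list labelled secretion and folding genes also holds genes of proline synthesis such as *Pycr1*.

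Markers of other cell types moved with these groups. In homeostasis 13 of 14 fibroblast markers were called lower in *Bmi1*-CPC and 0 higher (median −2.02), all except *Meox1*, and their summed value ranged from 4923 to 9046 in *Bmi1*-CPC and from 26147 to 29818 in *Sca-1*-YFP- cells. The summed value of the 10 members, of which *Fbn1* is the largest part, ranged from 1168 to 1410 and from 3391 to 4906. Endothelial markers were called higher for 12 of 12 (summed value 6789 to 8808 against 1805 to 3756), pericyte and smooth muscle markers for 9 of 10 with 1 lower (1650 to 2582 against 449 to 829), lymphatic endothelial markers for 6 of 6 and cardiomyocyte markers for 10 of 10 (854 to 1422 against 83.0 to 210). Macrophage markers were higher for 10 of 10 (147 to 270 against 3.59 to 6.24, with *Emr1*, *C1qa* and *C1qc* at 0 reads in *Sca-1*-YFP- cells) and leukocyte markers for 6 of 6. Removal of CD45+ cells is described for the *Sca-1*-YFP- sort only, so for these 2 lists the sort and the cells cannot be told apart. The only mesothelial marker tested was higher, and activated fibroblast markers were lower for 6 of 10 and higher for 1. The part of cell composition in the lower level of the members was not tested.

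After AMI 7 of 14 fibroblast markers were called higher and 3 lower (median 0.53, summed value 13960 to 19358), with the collagen genes *Col3a1* (3.21), *Col1a1* (2.92) and *Col1a2* (2.59) furthest up and *Pdgfra* (0.03, adjusted p = 0.88 in limma) and *Dcn* (0.23, adjusted p = 0.39) uncalled. The 3 called lower were *Dpep1* (−1.30), *Gsn* (−1.03) and *Tcf21* (−0.63, adjusted p = 0.034 in limma). All 10 activated fibroblast markers were higher (median 3.62, summed value 7973 to 17025 against 828 to 1157 in homeostatic *Bmi1*-CPC), among them *Postn* at 4.72 and *Cthrc1* at 5.98. Macrophage markers were higher for 9 of 10 (summed value 757 to 1349) and leukocyte markers for 6 of 6, while endothelial markers were lower for 10 of 12, cardiomyocyte markers for 10 of 10, lymphatic endothelial markers for 1 of 6, and pericyte and smooth muscle markers lower for 5 and higher for 2 of 10. Of 2 mesothelial markers 1 was higher and 1 lower. The part of these cell types in the levels of the members after AMI was not tested. Set against *Sca-1*-YFP- cells, AMI *Bmi1*-CPC had all 10 activated fibroblast markers higher but 10 of 14 fibroblast markers lower and 3 higher (median −1.29). All 6 lymphatic endothelial, 10 macrophage, 6 leukocyte, 10 cardiomyocyte and 2 mesothelial markers were also higher there, as were 8 of 12 endothelial markers and 7 of 10 pericyte and smooth muscle markers with 1 lower. The macrophage and leukocyte counts have the limit given above, as CD45+ cells were removed in the *Sca-1*-YFP- sort only.

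Within the AMI group the library with the lowest level was replicate 4 for 7 of 10 members, and their summed value there was 2278 against 3252 to 4057 in the other AMI libraries. The same library had the lowest summed value of fibroblast markers (13960) and of activated fibroblast markers (7973) and the highest of endothelial markers (6070) in its group. Among homeostatic *Bmi1*-CPC, replicate 3 was lowest for 6 of 10 members and lowest in fibroblast markers (4923) and highest in endothelial markers (8808), and replicate 1 was highest for 6 members and highest in fibroblast markers (9046). The part of cell composition in this spread was not tested.

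**Figure D5:**
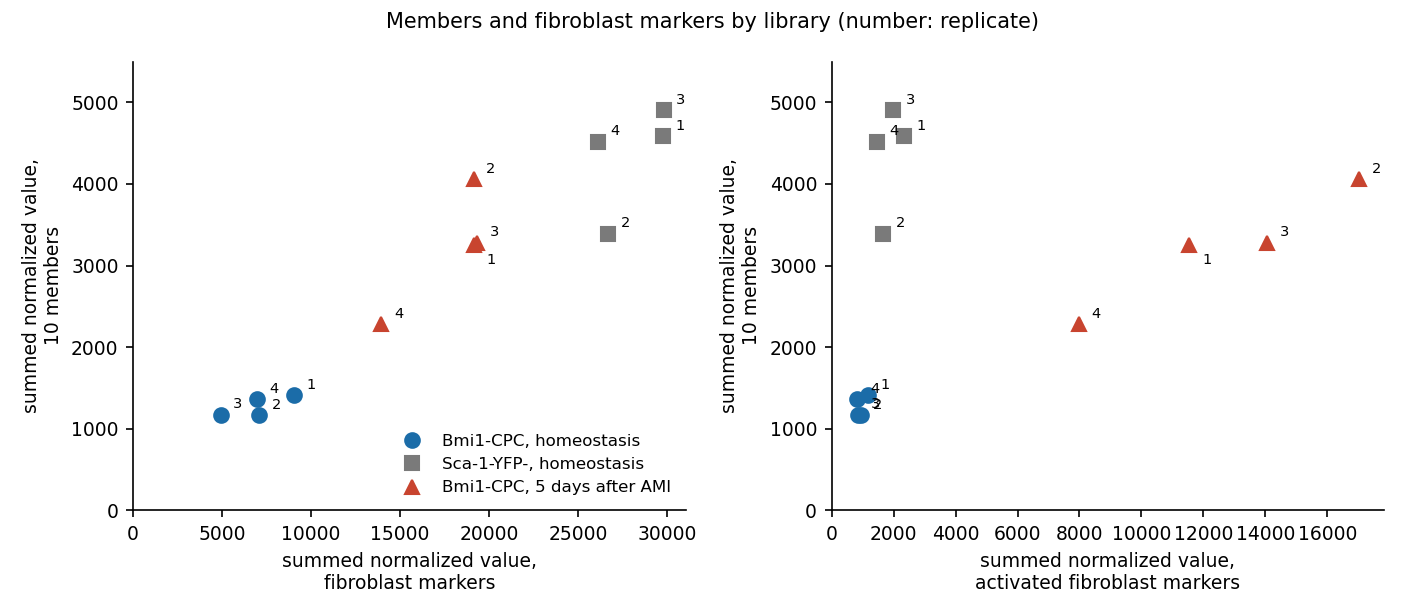
Summed normalized value of the 10 members (vertical axes) against that of 14 fibroblast markers (left) and of 10 activated fibroblast markers (right) in 12 libraries, with the replicate number beside each point and shapes for the groups. On the left the AMI libraries lie between the homeostatic groups in fibroblast markers, from 13960 to 19358, and on the right they lie beyond every homeostatic library on the horizontal axis, from 7973 to 17025.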

How the data were processed

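Amplified cDNA of the sorted cells was sequenced in single reads (75 bases) without strand information. The submitters' processing notes name cutadapt, RSEM and edgeR and the build NCBIM37, and versions are not given in the sources used here. The deposited tables hold the authors' normalized signal for 12528 genes in 12 libraries. Every deposited value (100% within 1e-06 of a read) equals (reads + 0.5) multiplied by a factor specific to the library, with whole reads, and the columns of homeostatic *Bmi1*-CPC were identical in both tables, so that all 12 libraries share 1 scale. The tables also hold 6 columns of the authors' own comparisons (fold changes and p-values), which were not used.

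Genes with a value over 1 in at least 4 of 8 libraries were tested with limma 3.58.1 (R 4.3.3) on log2(value + 1) with a variance trend, two-sided, with a Benjamini-Hochberg adjusted p under 0.05. The design allowed for counts, but the files hold normalized values, hence the use of limma. With edgeR 4.0.16 (quasi-likelihood, TMM) on the recovered reads, 2056 genes were called higher and 2216 lower in homeostasis, 2759 and 2705 after AMI, and 3325 and 3218 for AMI *Bmi1*-CPC against *Sca-1*-YFP- cells. Other alternatives were the pseudocount, the filter, the trend, the scaling of reads, DESeq2 1.42.0, the replicate as block and leaving out each library. The fits were tested on simulated data. Members and lists were chosen with earlier results of these data known. All members are named, and from each pathway list at most the 4 genes with the smallest adjusted p in a comparison, beside genes named because a sentence needed them after their values were seen (*Pdgfra*, *Dcn*, *Meox1*, *Postn*, *Fkbp10* and others). Listed genes not analysed here are *Emilin3*, *Adamtsl6*, *Mmp7*, *Mmp9*, *Elane*, *Itgb6*, *Cnn1*, *Cd52*, *Tyrobp*, *Upk3b*, *Msln*, *Krt19* and *Krt8*. *Mmp2*, *Lox*, *Acta2* and *Mmrn1* are each on 2 lists.

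No source states that replicate numbers pair the pools. In homeostasis deviations from the group means correlated between same-numbered pools at 0.261, 0.245, 0.159 and 0.305, while no differently numbered pool exceeded −0.0635, 5.27e-05, 0.0424 and 0.0791, and these pools appear paired from the data alone. Near copies of members were searched with blastn 2.17.0 among GENCODE M21 transcripts (at least 95% identity over at least 75 bases), and overlaps in its gene models.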

Additional observations from a re-analysis of the deposited data

Results flagged for a closer look

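For each of the 10 members in each of the 3 groups of 4 libraries, the gap between the highest or lowest library and its neighbour was divided by the range of the group, and 3 of these 30 groups passed the 95% critical value of Dixon, where chance alone passes about 1 group in 20. *Eln* in homeostatic *Bmi1*-CPC had a gap of 0.851 of the range, since replicate 4 had 31.4 and the others 12.7 to 15.5. *Fbln1* in *Sca-1*-YFP- cells had 0.871, with 500 in replicate 1 and 463 to 468 in the others. *Fbln2* in *Sca-1*-YFP- cells had 0.861, with 1121 in the same replicate 1 and 788 to 835 in the others. *Sca-1*-YFP- replicate 1 had the most reads of its group over the deposited genes, with 8031666.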

How the results depend on the processing

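In homeostasis all 10 members were called lower under each of the 19 alternatives, and *Eln* ranged from −2.08 to −1.28 (adjusted p at most 0.023). After AMI *Fbn1*, *Mfap5*, *Efemp2*, *Fbln5* and *Emilin2* were called higher under each of 19, and 6 members were called without AMI replicate 4. Directions changed only for differences near 0. *Fbln2* after AMI was −0.00096 with upper quartile scaling and −0.0013 with totals that leave out mitochondrial genes, and −0.0773 to 0.164 when single libraries were left out, as *Fbln1* was −0.0490 to 0.282. Against *Sca-1*-YFP- cells, *Fbn1* was −0.0729 and *Efemp2* −0.134 when reads were scaled to library totals, and −0.122 to 0.271 and −0.0456 to 0.150 when single libraries were left out. There *Eln* (−1.22) also missed the threshold without the trend (adjusted p = 0.063), with the replicate block (0.068) and in DESeq2 (0.057), and 5 to 7 members were called lower. Counts over all genes moved by more than 1.5 times only with library totals, in edgeR, to 1327 higher and 3386 lower in homeostasis (2090 and 2196 in limma, 2056 and 2216 in edgeR with TMM), to 1792 lower after AMI (2750 and 2705) and to 2025 higher for AMI *Bmi1*-CPC against *Sca-1*-YFP- cells (3188 and 3325); the cause was not tested.

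The replicate block changed no call of a member in homeostasis (2267 genes higher and 2400 lower). Between AMI and homeostatic *Bmi1*-CPC same-numbered libraries correlated at −0.0176 to 0.0775, so these share only a number, and the block gave 2590 and 2623 calls and, against *Sca-1*-YFP- cells, 2974 and 3101.

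With 4 pools a group, differences under about 1 log2 unit in a variable gene such as *Eln* could not be resolved after AMI. The log2(value + 1) scale understates the changes of *Emilin2*, which had 23 to 36 reads in homeostatic *Bmi1*-CPC. Values rest on amplified cDNA, so counting limits are the least error that can be expected.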
